A study of Mus musculus with 40 samples.

Results

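The acyl-CoA dehydrogenases described here are *Acads*, *Acadm*, *Acadl*, *Acadvl*, *Acadsb*, *Acad8*, *Acad9*, *Acad10* and *Acad11*. These 9 genes were taken by symbol from the 20295 genes counted in brown adipose tissue (BAT) of 40 male mice, and all 9 were among the 13277 genes with enough counts for testing. Poly(A) RNA was sequenced from 5 mice in each of 8 groups, all housed at 29 °C. In the genotype cohort, C-3BO mice carried the *Gpr3* TTG allele, which expresses *Gpr3* once Cre has removed a stop cassette, together with *Ucp1*-Cre. Their control littermates lacked either the TTG allele or Cre. Both genotypes were 13 to 19 weeks old and were fed chow or received a high-fat diet (HFD) with 60 kcal% fat for 7 days. *Ucp1*-Cre acts in brown and beige adipocytes from early life onward, so that overexpression was neither limited to BAT nor begun in the adult. In the injection cohort, 15-week-old mice labelled as wildtype, which were control littermates of inducible *Gpr3* overexpressors (I-3BO), received saline or CL-316,243 (CL), an agonist of the β3-adrenergic receptor, at 1 mg/kg daily for 9 days. The injected HFD mice changed diet 2 days after the injections began, and tissue was taken on the day after the last injection.

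Acyl-CoA dehydrogenases are flavoenzymes of the mitochondrion that remove hydrogen from an acyl-CoA and pass the electrons through electron-transfer flavoprotein and its oxidoreductase to the respiratory chain. This is the first reaction of each round of fatty acid beta-oxidation, and related enzymes catalyse the matching reaction in amino acid breakdown. *Acadvl*, *Acadl*, *Acadm* and *Acads* act on straight chains of very long, long, medium and short length, *Acadsb* acts on an intermediate of isoleucine and *Acad8* on one of valine. *Acad9* is best known as an assembly factor of respiratory complex I, while *Acad10* and *Acad11* are less studied relatives. In BAT, fatty acid oxidation feeds the heat production of UCP1, and both β-adrenergic receptors and the constitutively active receptor GPR3 signal through Gs and cAMP.

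Levels are given as CPM, counts relative to the library total after scaling by the TMM factors of edgeR, and differences between groups were tested by edgeR's quasi-likelihood method. A change was called at a Benjamini-Hochberg adjusted p under 0.05 over the 13277 genes. Each of the 9 genes had between 62 and 57425 counts in every library, well above the 3 counts taken as the floor, which equal 0.206 to 3.01 CPM and cover counting error only. *Gpr3* lay between 266 and 919 CPM in C-3BO mice and did not exceed 0.744 CPM in their controls, and among injected mice it was highest, at 9.15 CPM, in replicate 3 of chow CL. *Ucp1* (uncoupling protein of brown adipocytes) was detected in all 40 libraries, but replicate 5 of the chow CL mice had 1645 CPM and lay within the chow saline range of 1268 to 1866 CPM. All 5 HFD saline libraries, all 5 HFD CL libraries and replicates 4 and 5 of HFD C-3BO stood apart, with 62.2 to 294 CPM of the liver transcript *Alb* against at most 1.62 CPM in the other 28 libraries. *Lcn8*, a transcript of the epididymis, had counts in all of these 12 libraries and in none of the other 28. The totals of the 12 libraries lay between 849126 and 7284129 counts and those of the other 28 between 7349348 and 15260516. Skeletal muscle transcripts also differed between groups. On chow the 10 muscle markers summed to 731 to 9492 CPM in control and 370 to 3610 CPM in C-3BO mice, and on HFD to 5.25 to 204 CPM and 5.63 to 70.7 CPM. In whole tissue, fewer cells of a type and less RNA per cell cannot be told apart.

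Measured per kb of exon, the transcripts of the straight-chain enzymes made up nearly all of the family in each group. In chow saline mice *Acadl* had 1256 ± 152 CPM per kb (SD, n = 5), *Acadvl* 996 ± 203, *Acadm* 859 ± 153 and *Acads* 300.5 ± 50.7. *Acad11* and *Acadsb* followed with 90.9 ± 17.9 and 88.7 ± 9.66 CPM per kb, and *Acad8*, *Acad10* and *Acad9* with 34.1 ± 5.10, 21.0 ± 2.25 and 17.5 ± 1.99. The straight-chain enzymes held between 92.4% and 94.8% of the summed level in every library. The sum of the 9 genes was 3664 ± 563 CPM per kb in chow saline mice and 5917 ± 230.4 in chow CL mice. On HFD it was 3831 ± 353 with saline and 6573 ± 380.2 with CL. In the genotype cohort on chow, the sum was 4201 ± 135 CPM per kb in control and 6299 ± 668 in C-3BO mice. On HFD it was 4412 ± 783 in control and 6890.0 ± 473 in C-3BO mice. On each diet, all mice given CL lay above all mice given saline, and all C-3BO mice lay above all control mice.

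**Figure D1:**
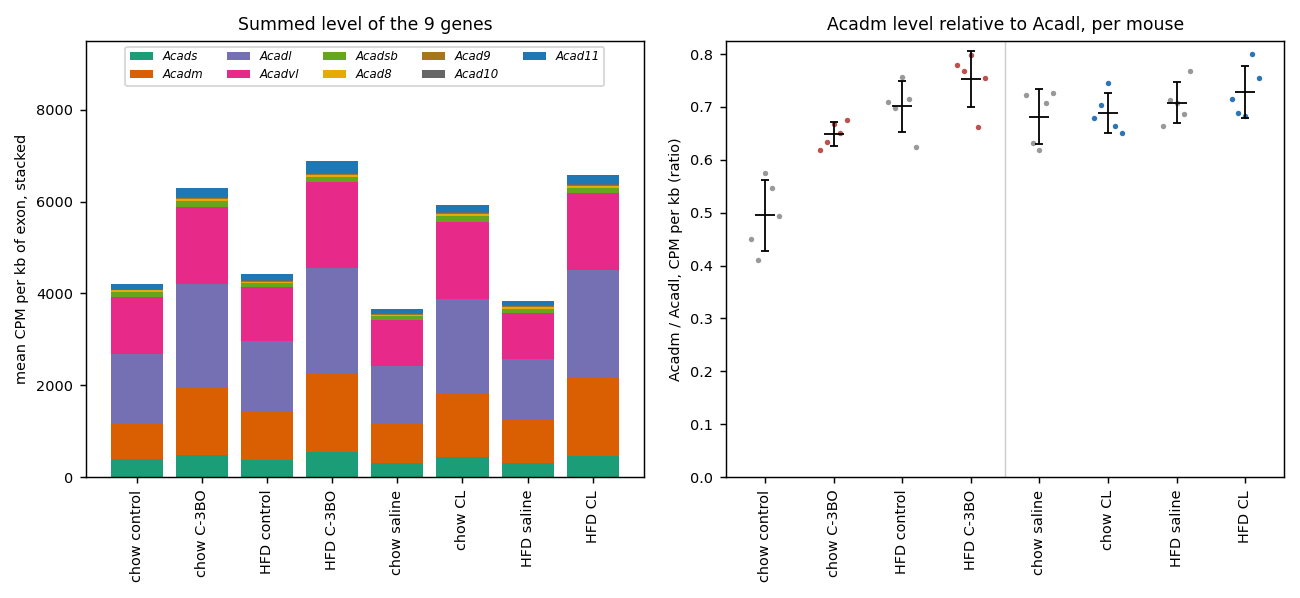
Left, mean CPM per kb of exon of the 9 genes, stacked by gene for each group of 5 mice. Right, the ratio of *Acadm* to *Acadl* (both in CPM per kb) for each mouse as a point, with mean and SD as black marks; the chow control mice sit between 0.410 and 0.575, below every mouse of the other groups.

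The balance of medium-chain to long-chain transcripts was lowest in chow control mice. The ratio of *Acadm* to *Acadl*, both per kb, was 0.495 ± 0.068 (SD, n = 5) in chow control and 0.649 ± 0.023 in chow C-3BO mice. On HFD it was 0.701 ± 0.048 in control and 0.752 ± 0.053 in C-3BO mice, and in the injected groups the means lay between 0.681 and 0.728. The highest chow control mouse, at 0.575, was below the lowest mouse of the 7 other groups, at 0.618. Chow control mice were also the group with the highest muscle marker sum, and the part of muscle RNA in this ratio was not tested. No test was made of the ratio, which was chosen after its values had been seen.

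The 250 bases upstream of the RefSeq start sites are shown for 4 members, *Acadm* and *Acadvl* as straight-chain enzymes, *Acad11* as the member with the highest fold change on HFD and *Acad10* as the member that passed no treatment comparison. Sequences are from RefSeq (GRCm38.p6) and each was placed by an exact and single match on mm9, the build of the counts, on which all positions are given. The *Acad11* window runs past the start of the counted gene model. A RefSeq promoter was found for 8 of the 9 members, all but *Acad9*. Capitals mark TGACG, the core of the cAMP response element, or AGGTCA, the core site of nuclear receptors, on either strand.
*Acadm* (chr3:153607608-153607857, minus strand): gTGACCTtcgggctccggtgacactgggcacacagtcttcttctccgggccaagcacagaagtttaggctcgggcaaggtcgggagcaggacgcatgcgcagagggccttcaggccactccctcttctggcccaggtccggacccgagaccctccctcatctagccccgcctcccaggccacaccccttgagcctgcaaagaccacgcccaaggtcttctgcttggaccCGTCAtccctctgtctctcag
*Acadvl* (chr11:69828931-69829180, minus strand): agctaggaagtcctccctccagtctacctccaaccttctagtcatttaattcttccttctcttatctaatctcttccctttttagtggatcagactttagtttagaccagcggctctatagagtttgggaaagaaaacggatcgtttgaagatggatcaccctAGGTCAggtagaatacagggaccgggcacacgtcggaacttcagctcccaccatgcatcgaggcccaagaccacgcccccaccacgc
*Acad11* (chr9:103965804-103966053, plus strand): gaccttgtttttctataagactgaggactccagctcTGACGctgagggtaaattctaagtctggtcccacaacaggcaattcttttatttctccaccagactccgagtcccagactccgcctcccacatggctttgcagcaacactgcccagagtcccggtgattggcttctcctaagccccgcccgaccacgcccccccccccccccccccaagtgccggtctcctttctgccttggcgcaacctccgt
*Acad10* (chr5:122110520-122110769, minus strand): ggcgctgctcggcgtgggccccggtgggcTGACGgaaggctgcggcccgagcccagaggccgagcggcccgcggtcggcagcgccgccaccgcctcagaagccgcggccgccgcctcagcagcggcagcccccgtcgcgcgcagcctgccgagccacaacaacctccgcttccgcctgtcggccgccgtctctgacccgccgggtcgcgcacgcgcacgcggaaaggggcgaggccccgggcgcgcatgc

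TGACG was found in 4 of the 8 windows, at -21 in *Acadm*, -139 in *Acadsb*, -221 in *Acad10* and -214 in *Acad11*, counted from the start site to the first base of the match. It occurs in 17.8% of the 32851 RefSeq promoters of mouse over the same 250 bases. AGGTCA was found in 2 windows, at -87 in *Acadvl* and at -249 in *Acadm*, and in 14.0% of all promoters. The complete element TGACGTCA, which contains TGACG on both strands, was in none of the 8 windows and in 1.55% of promoters. Likewise, none held a direct repeat of AGGTCA spaced by 1 base (0.0335% of promoters) or the estrogen-related receptor element TCAAGGTCA, which contains AGGTCA (0.387%). The windows of *Acads*, *Acadl* and *Acad8* held none of these motifs.

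The transcripts of the straight-chain enzymes rose with CL and with the transgene on both diets. *Acadm*, the medium-chain enzyme (NM_007382, chr3:153585317-153607607, minus strand), had 1734, 1611, 1384, 1914 and 2217 CPM in chow saline mice. With CL on chow it had 2921, 2718, 2968, 2906 and 2893 CPM. On HFD it had 1701, 1845, 1836, 1851 and 2459 CPM with saline and 3721, 3523, 3285, 3633 and 3328 CPM with CL. The groups did not overlap on either diet, and replicate 5 was the highest of the HFD saline mice. The log2 fold change of CL by edgeR was 0.70 (SE 0.12, adjusted p = 6.42e-05) on chow and 0.85 (SE 0.12, adjusted p = 1.34e-06) on HFD.

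In the genotype cohort *Acadm* had 1423, 1339.8, 1729, 1823 and 1545 CPM in chow control mice and 3068, 2618, 3534, 2988 and 2842 CPM in chow C-3BO mice. On HFD it had 1896, 1845, 2409, 2831 and 2066 CPM in control mice and 3651, 3970.3, 3591, 3042 and 3449.5 CPM in C-3BO mice. No control mouse reached the lowest C-3BO mouse on its diet. The lowest C-3BO mice on HFD were replicates 4 and 5, which stand apart by liver transcripts. The log2 fold change of C-3BO by edgeR was 0.94 (SE 0.12, adjusted p = 1.78e-07) on chow and 0.68 (SE 0.12, adjusted p = 2.10e-05) on HFD. Among the members, only *Acad11* had a higher fold change than *Acadm* in C-3BO mice on chow.

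*Acadl*, the long-chain enzyme (NM_007381, chr1:66877413-66909883, minus strand), had 2265, 2408, 2115, 2558 and 2887 CPM in chow saline mice and 4060.0, 3650.4, 3766, 4141 and 4196 CPM in chow CL mice. On HFD the values were 2418, 2442, 2450.1, 2549 and 3027 CPM with saline and 4923, 4830.2, 4542, 4294 and 4164 CPM with CL. All CL mice exceeded all saline mice. CL gave a log2 fold change by edgeR of 0.70 (SE 0.10, adjusted p = 4.70e-06) on chow and 0.82 (SE 0.10, adjusted p = 1.04e-07) on HFD. In the genotype cohort on chow, *Acadl* ranged from 2841 to 3155 CPM in control and from 3905 to 4999 CPM in C-3BO mice. On HFD the ranges were 2495 to 3742 CPM and 4253 to 4883 CPM. The genotypes did not overlap on either diet, with a log2 fold change by edgeR of 0.54 (SE 0.10, adjusted p = 5.16e-05) on chow and 0.58 (SE 0.10, adjusted p = 1.56e-05) on HFD. Ordered by mean, the 4 groups without CL or transgene had the lowest *Acadl* levels. Neighbours in that order overlapped except at the step from chow control to chow CL mice, and the highest HFD control mouse exceeded the lowest chow CL mouse.

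*Acadvl*, the very-long-chain enzyme of the inner membrane (NM_017366, chr11:69823685-69828930, minus strand), was lower in every mouse of the 4 groups without CL or transgene than in any mouse of the other 4. It lay at 1986, 1786, 1921, 2302 and 2896 CPM in chow saline mice and at 3879, 3603, 3493, 3806 and 3733 CPM in chow CL mice. On HFD its range was 2108 to 2431 CPM with saline and 3427 to 4083 CPM with CL. Replicate 5 was the highest chow saline mouse and remained below all CL mice. By edgeR, the log2 fold change of CL was 0.77 (SE 0.11, adjusted p = 7.37e-06) on chow and 0.73 (SE 0.11, adjusted p = 6.47e-06) on HFD. For C-3BO it was 0.44 (SE 0.11, adjusted p = 0.00220) on chow, where control mice had 2470.1 to 2842 CPM and C-3BO mice 3286 to 4229 CPM. On HFD it was 0.68 (SE 0.11, adjusted p = 8.19e-06) by edgeR, with 2007 to 3185 CPM in control mice and 3496 to 4627 CPM in C-3BO mice.

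*Acads*, the short-chain enzyme (NM_007383, chr5:115560308-115569355, minus strand), had the smallest log2 fold change of the straight-chain members in C-3BO mice on chow, a difference between genes that was not tested. The *Acads* values were 742, 720.4, 781, 715 and 634 CPM in chow control mice and 1019.5, 834, 1107, 860.4 and 786 CPM in chow C-3BO mice. The gap between the highest control and the lowest C-3BO mouse was narrow, and the log2 fold change by edgeR was 0.36 (SE 0.11, adjusted p = 0.0132). On HFD *Acads* had 532 to 839 CPM in control mice and 937 to 1169 CPM in C-3BO mice, and edgeR gave a log2 fold change of 0.57 (SE 0.11, adjusted p = 1.32e-04). With CL the log2 fold change by edgeR was 0.54 (SE 0.11, adjusted p = 8.86e-04) on chow and 0.65 (SE 0.11, adjusted p = 4.45e-05) on HFD, with no overlap on either diet.

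**Figure D2:**
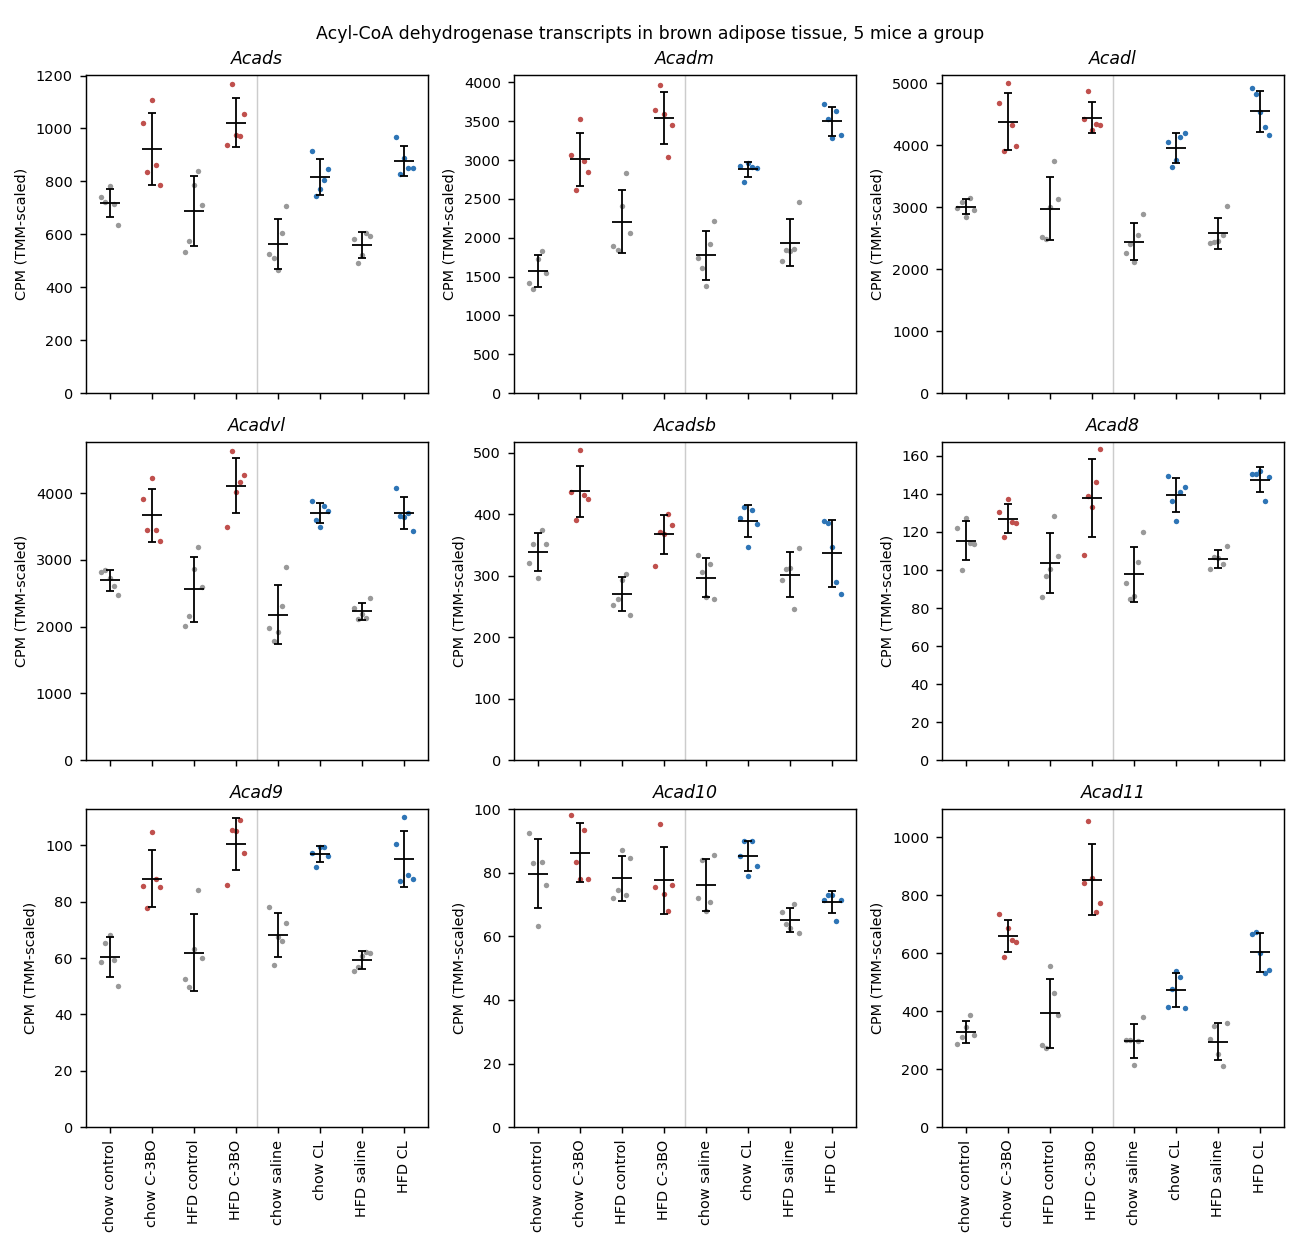
CPM of the 9 genes in each mouse (points; gray, control or saline; red, C-3BO; blue, CL), with mean and SD of 5 mice as black marks and a gray line between the cohorts. The C-3BO and CL mice sit above their control or saline mice for the straight-chain enzymes and *Acad11*, while the *Acad10* values of all groups lie between 61.2 and 98.3 CPM.

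The enzymes of branched-chain amino acid breakdown were lower in level and rose in 3 of the 4 comparisons each. *Acadsb* (NM_025826, chr7:138554115-138589725, plus strand), which acts in the isoleucine route, had 334, 306, 265, 319 and 262 CPM in chow saline mice and 393, 413, 346, 407 and 385 CPM in chow CL mice. This difference had no overlap and a log2 fold change of 0.39 (SE 0.10, adjusted p = 0.00684) by edgeR. On HFD *Acadsb* had 293, 311, 313, 246 and 346 CPM with saline and 389, 386, 347, 289 and 269.8 CPM with CL. Here the groups overlapped, with 2 CL mice below 4 of the 5 saline mice, and the log2 fold change of 0.15 (SE 0.10, adjusted p = 0.301) by edgeR did not pass. For C-3BO it was 0.37 (SE 0.10, adjusted p = 0.00491) on chow and 0.45 (SE 0.10, adjusted p = 6.81e-04) on HFD by edgeR, without overlap on either diet. Replicates 4 and 5 of HFD C-3BO, which stand apart by liver transcripts, had 382 to 401 CPM against 315 to 372 CPM in replicates 1 to 3.

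*Acad8* (NM_025862, chr9:26781726-26807134, minus strand), isobutyryl-CoA dehydrogenase of the valine route, had 122, 100.1, 127, 114 and 114 CPM in chow control mice and 130.4, 117, 137, 125 and 125 CPM in chow C-3BO mice. The groups overlapped and the log2 fold change of 0.14 (SE 0.10, adjusted p = 0.280) by edgeR did not pass. On HFD it had 85.8, 97.0, 100.4, 128 and 107 CPM in control mice and 108, 139, 133, 146 and 164 CPM in C-3BO mice. The 2 highest C-3BO mice were replicates 4 and 5, which stand apart by liver transcripts, and replicate 1 lay within the control range. The log2 fold change was 0.41 (SE 0.10, adjusted p = 0.00102) by edgeR, and the exact two-sided permutation test gave p = 0.0159. With CL *Acad8* rose without overlap, by a log2 fold change of 0.51 (SE 0.10, adjusted p = 2.57e-04) on chow and 0.48 (SE 0.10, adjusted p = 4.35e-04) on HFD by edgeR.

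*Acad9*, the complex I assembly factor (NM_172678, chr3:35964922-35991779, plus strand), had the lowest level per kb of the 9 genes in 5 of the 8 groups, while in HFD C-3BO, HFD CL and chow CL mice *Acad10* was lower. It had 55.4, 56.7, 60.8, 62.2 and 61.8 CPM in HFD saline mice and 100.4, 87.3, 110.0, 89.7 and 88.0 CPM in HFD CL mice. In the genotype cohort on HFD it had 52.7, 49.8, 63.1, 84.2 and 60.1 CPM in control mice and 85.9, 105, 105, 109 and 97.3 CPM in C-3BO mice. The highest control mouse, replicate 4, lay just below the lowest C-3BO mouse, replicate 1. All 4 treatment comparisons passed, with log2 fold changes by edgeR of 0.50 (SE 0.10, adjusted p = 8.31e-04) and 0.68 (SE 0.11, adjusted p = 1.34e-05) for CL on chow and HFD. For C-3BO they were 0.55 (SE 0.11, adjusted p = 1.19e-04) and 0.70 (SE 0.11, adjusted p = 2.45e-06) by edgeR.

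*Acad11* (NM_175324, chr9:103966033-104029976, plus strand) had the highest fold change of the family in 3 of the 4 comparisons, CL on chow being the exception. It had 286, 309.9, 347, 386 and 318 CPM in chow control mice and 736, 587, 686, 647 and 640.4 CPM in chow C-3BO mice. On HFD it had 285, 274, 557, 462 and 387 CPM in control mice and 843, 1056, 858, 741 and 773 CPM in C-3BO mice. The highest C-3BO mouse was replicate 2, and replicates 4 and 5, which stand apart, were the lowest of their group, above all controls. The log2 fold change by edgeR was 1.00 (SE 0.15, adjusted p = 5.46e-06) on chow and 1.12 (SE 0.16, adjusted p = 5.47e-07) on HFD. In the injection cohort *Acad11* had 299.5, 301, 214, 298 and 380.1 CPM with saline and 415, 477, 539.8, 517 and 410.2 CPM with CL on chow. On HFD it had 305, 348, 254, 209.7 and 359 CPM with saline and 666, 673, 599, 532 and 543 CPM with CL. Neither pair of groups overlapped, and the log2 fold change by edgeR was 0.66 (SE 0.15, adjusted p = 0.00278) on chow and 1.02 (SE 0.16, adjusted p = 6.75e-06) on HFD. *Acad11* shares 189 exon bases with *Ackr4* on the other strand, so that its counts could hold reads of that gene. *Ackr4* had at most 7.99 CPM in any mouse.

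*Acad10* (NM_028037, chr5:122071038-122110519, minus strand) passed none of the 4 treatment comparisons. In chow saline mice it had 72.0, 84.0, 67.9, 70.6 and 85.6 CPM and in chow CL mice 85.3, 89.9, 79.0, 89.8 and 82.1 CPM. On HFD it had 67.7, 63.9, 62.7, 70.2 and 61.2 CPM with saline and 71.5, 72.8, 73.0, 64.7 and 71.4 CPM with CL. These groups overlapped on both diets, and the log2 fold change of CL by edgeR was 0.16 (SE 0.09, adjusted p = 0.230) on chow and 0.13 (SE 0.10, adjusted p = 0.368) on HFD. In the genotype cohort on chow, *Acad10* ranged from 63.4 to 92.5 CPM in control and from 78.03 to 98.3 CPM in C-3BO mice. On HFD the ranges were 72.0 to 87.2 CPM and 67.9 to 95.4 CPM. By edgeR, C-3BO had a log2 fold change of 0.11 (SE 0.09, adjusted p = 0.361) on chow and -0.01 (SE 0.09, adjusted p = 0.953) on HFD. *Acad10* shares 20.2% of its 50-base words with its neighbour *Acad12*, a close paralog, and how such reads were counted is not stated. The counts of *Acad10* are uncertain to that extent, and those of *Acad12* to an extent that was not computed.

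Over the family, CL on chow raised 8 of the 9 genes and lowered none, by edgeR at an adjusted p under 0.05, against 9.16% of all tested genes raised and 6.13% lowered. CL on HFD raised 7 and lowered none, against 12.7% and 10.8% of all tested genes. In C-3BO mice 7 were higher and none lower on chow, against 15.8% and 15.9% of all tested genes, and 8 were higher and none lower on HFD, against 19.3% and 15.5%. The median log2 fold change of the 9 genes was 0.54 for CL on chow and 0.68 on HFD, and 0.44 for C-3BO on chow and 0.58 on HFD. The median over all tested genes lay between -0.03 and -0.01 in these comparisons. With library totals alone as the scale, the median over all genes lay between -0.23 and -0.15, and 7, 7, 5 and 8 members were called in the same order. *Acadsb* for CL and *Acads* and *Acadsb* for C-3BO on chow were then not called, with log2 fold changes of 0.24, 0.16 and 0.17 (edgeR adjusted p = 0.0558, 0.199 and 0.143). Members with every treated mouse above every untreated one numbered 8 and 7 for CL on chow and HFD and 7 and 7 for C-3BO, where 5.88%, 9.68%, 10.4% and 11.4% of all tested genes had such a pattern. For each of these members the exact two-sided permutation test of 5 against 5 mice gave p = 0.00794, the smallest value that it can give. Groups without overlap always give this value, so that it adds nothing to these counts.

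**Figure D3:**
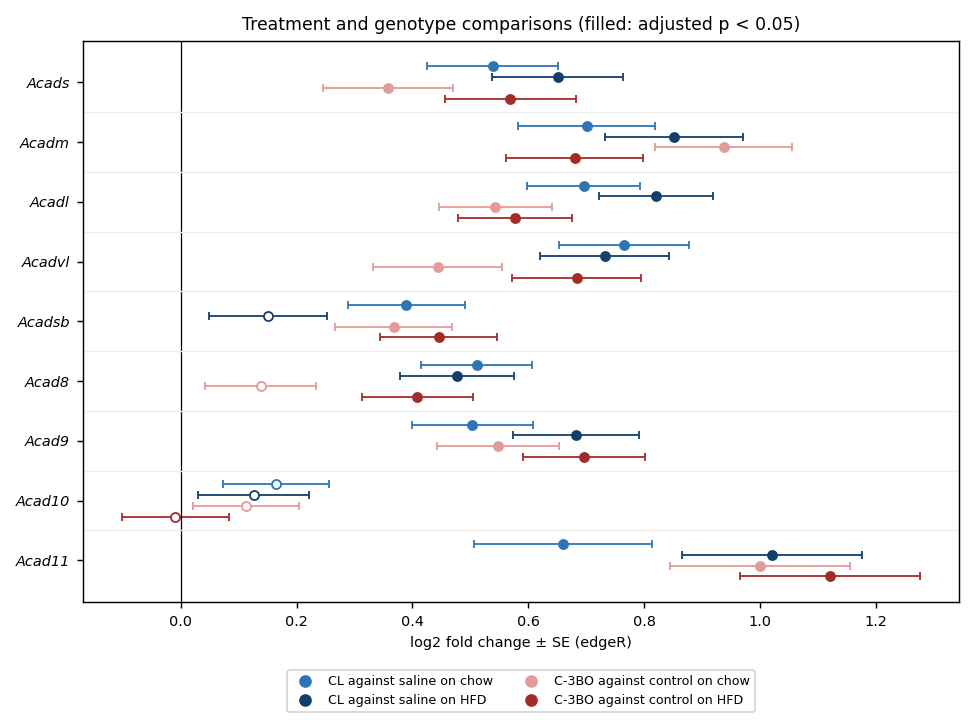
Log2 fold change of each gene with its SE (edgeR) for the effect of CL (relative to saline) and of C-3BO (relative to control littermates) on chow and HFD; filled points passed an adjusted p under 0.05 and open points did not. All but 1 point lie above 0, and the 6 open points are *Acad10* in the 4 comparisons, *Acadsb* for CL on HFD and *Acad8* for C-3BO on chow.

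At a log2 fold change above 1 (a doubling), none of the 9 genes passed for CL on chow and only *Acad11* passed in the 3 other comparisons. In all tested genes the shares past both limits were 1.12% and 2.06% with CL on chow and HFD, and 2.37% and 4.34% in C-3BO mice. *Acad11* was close to the limit in 2 of the 3, at a log2 fold change of 1.02 for CL on HFD and 1.00 for C-3BO on chow. The other members that were called lay between 0.36 and 0.94.

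Markers of brown adipocytes and of other cell types moved with some of these comparisons. No brown adipocyte marker was without counts in a whole group of 5 mice. The 12 brown adipocyte markers, which include *Ucp1*, summed to 13360 to 19356 CPM in chow saline mice and 18009 to 26702 CPM in chow CL mice, and on HFD to 14773 to 17908 CPM with saline and 22716 to 28923 CPM with CL. In control mice they summed to 13006 to 17847 CPM on chow and 15150 to 28524 CPM on HFD, and in C-3BO mice to 20801 to 29782 CPM and 30638 to 35112 CPM. Of the 12, 5 were higher with CL on each diet, and 7 and 6 were higher in C-3BO mice on chow and HFD, while *Adipoq* was lower with either treatment on chow. The part of the number of brown adipocytes in the member levels was not tested. On chow, the summed muscle markers were 10.4 to 2432 CPM with saline and 11.1 to 133 CPM with CL, and 9 of the 10 were lower with CL (median log2 fold change -4.08). With the muscle sum as a covariate in the edgeR model, a fit added after the data were seen, the 8, 7, 7 and 8 members called above were called again, and no others. Without the libraries of 1000 CPM or more of muscle transcripts, which left 2 chow saline mice, the same 8 members were called for CL on chow. For C-3BO on chow, 1 control and 1 C-3BO mouse were below that limit. Of 10 tested liver markers 10, and of 3 tested epididymis markers 3, were higher in HFD C-3BO than in HFD control mice. Replicates 4 and 5 had 410.2 to 437 CPM of liver markers in sum against 2.37 to 4.90 CPM in replicates 1 to 3, and without replicates 4 and 5 the same 8 members were higher in HFD C-3BO mice. Macrophage markers summed to 276 to 685 CPM in HFD saline and 117 to 358 CPM in HFD CL mice, with 2 of 5 tested markers lower with CL, and 1, *Csf1r*, was lower in HFD C-3BO mice. Of 3 endothelial markers, 2 and 3 were lower in C-3BO mice on chow and HFD, and 1, *Pecam1*, was higher with CL on HFD. The part of macrophage and endothelial RNA in the results was not tested.

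No member's response to CL or to the transgene differed between the diets at an adjusted p under 0.05. The interaction of diet with C-3BO passed for none of the 9 genes with edgeR or DESeq2, and for none at an unadjusted p under 0.05, with 2.08% of all tested genes called by edgeR. Its estimates ran from -0.26 for *Acadm* to 0.27 for *Acad8* on the log2 scale, with SE between 0.13 and 0.22. The interaction of diet with CL passed for none of the 9 with edgeR or DESeq2, none at an unadjusted p under 0.05, and 0.0151% of all genes. Its largest estimate was 0.36 (SE 0.22, edgeR adjusted p = 0.624) for *Acad11*. A p that misses the threshold does not show that the responses were alike on both diets.

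The C-3BO effect was also compared with the CL effect on the same diet, 2 contrasts with separate control groups and separate cohorts. On chow none of the 9 genes passed with edgeR or DESeq2 and 2 had an unadjusted p under 0.05, against 6.24% of all tested genes called by edgeR. These were *Acad8*, where C-3BO minus CL was -0.37 (SE 0.14, adjusted p = 0.0930) by edgeR, and *Acadvl*, where it was -0.32 (SE 0.16, adjusted p = 0.236). For *Acad8* the adjusted p over the alternatives ranged from 0.0259 to 0.228, and it was 0.0307 without replicate 5 of the chow saline mice. On HFD none passed with edgeR or DESeq2 and 1, *Acadsb*, had an unadjusted p under 0.05, with a difference of 0.29 (SE 0.14, adjusted p = 0.356) by edgeR, against 1.80% of all tested genes called.

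Between chow and 7 days of HFD, 2 of the 9 members were called in control mice, 1 in CL mice and none in C-3BO or saline mice. These counts were not tested against the shares of all tested genes given with each, and they changed with the fit. In control mice *Acadm* was higher on HFD than on chow, at 1896, 1845, 2409, 2831 and 2066 against 1423, 1339.8, 1729, 1823 and 1545 CPM without overlap, and its log2 fold change was 0.49 (SE 0.12, adjusted p = 0.00130) by edgeR. *Acadsb* was lower, at 253, 262, 293, 303 and 237 against 320.3, 351, 296, 375 and 352 CPM with the 2 groups overlapping, and a log2 fold change of -0.33 (SE 0.10, adjusted p = 0.0105) by edgeR. The other 7 did not pass. Of all tested genes, 15.4% were higher and 17.5% lower on HFD in control mice. All 10 muscle markers were lower on HFD in these mice (median log2 fold change -6.93), while all 3 endothelial markers were higher (median 0.78) and of the 12 brown adipocyte markers 4 were higher and 3 lower. The part of endothelial and brown adipocyte RNA in these changes was not tested. With the muscle sum as a covariate *Acadm* had 0.62 (edgeR adjusted p = 0.0111) and *Acadsb* -0.26 (edgeR adjusted p = 0.248). The muscle sums of control mice did not overlap between the diets, at 731 to 9492 CPM on chow and 5.25 to 204 CPM on HFD. Diet and muscle content therefore cannot be told apart in these mice, with or without the covariate. The *Acadsb* call was also lost with library totals alone, at -0.18 (edgeR adjusted p = 0.127).

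In C-3BO mice none of the 9 passed between the diets with edgeR, 2 had an unadjusted p under 0.05 and DESeq2 called 1, while 13.5% of all tested genes were higher and 12.2% lower on HFD. The 2 were *Acadsb*, with -0.25 (SE 0.10, adjusted p = 0.0622) by edgeR, and *Acad11*, with 0.37 (SE 0.15, adjusted p = 0.0684) and no overlap between the diets. In saline mice none passed with edgeR or DESeq2 and 1, *Acad10*, had an unadjusted p under 0.05, against 7.45% of genes higher and 8.04% lower. In CL mice 5 members had an unadjusted p under 0.05. *Acadm* (0.28, SE 0.12, without overlap), *Acadl* (0.20, SE 0.10) and *Acad11* (0.35, SE 0.15) were higher on HFD, and *Acadsb* (-0.21, SE 0.10) was lower. None of these passed by edgeR (adjusted p = 0.0796, 0.137, 0.0909 and 0.131 in that order). *Acad10* passed and was lower on HFD, at 71.5, 72.8, 73.0, 64.7 and 71.4 against 85.3, 89.9, 79.0, 89.8 and 82.1 CPM. It had no overlap and a log2 fold change of -0.27 (SE 0.09, adjusted p = 0.0297) by edgeR. This is 1 of 9, against 10.9% of genes higher and 12.7% lower, and the call was lost without replicate 2 or 4 of the chow CL mice or replicate 4 of the HFD CL mice, where the adjusted p was 0.0668, 0.0645 and 0.131 by edgeR. It was also lost with library totals alone, at a log2 fold change of -0.10 (edgeR adjusted p = 0.512), with DESeq2 (-0.25, adjusted p = 0.0504) and in 1 of the other alternatives. In the injected mice, diet and the set of libraries that stands apart by depth and liver transcripts cannot be told apart.

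**Figure D4:**
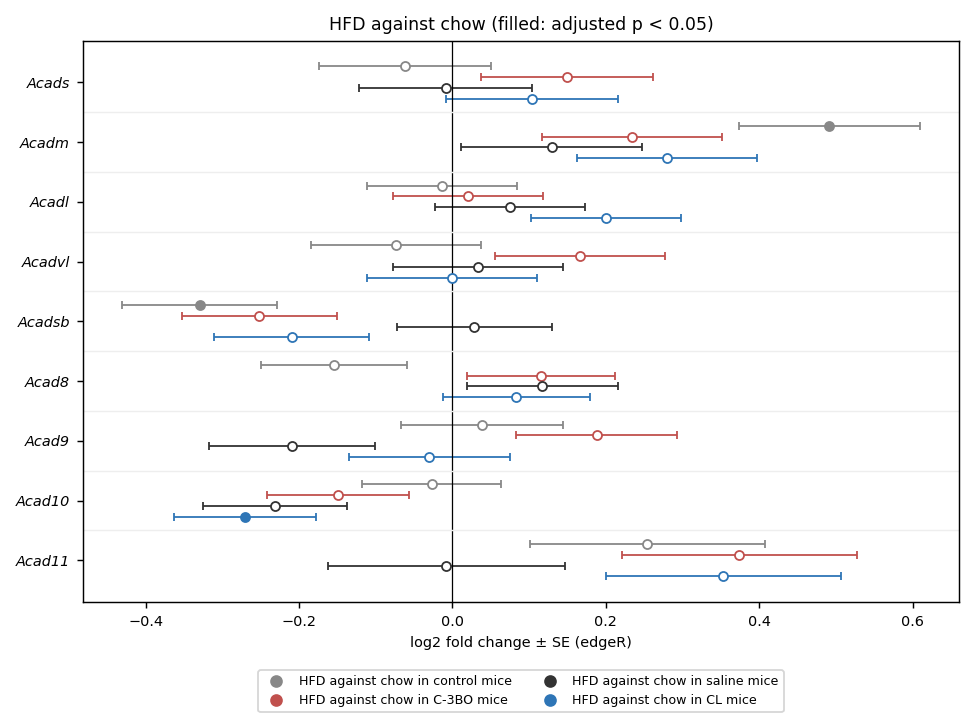
Log2 fold change of HFD against chow with its SE (edgeR) for each gene in control, C-3BO, saline and CL mice; filled points passed an adjusted p under 0.05. The 3 filled points are *Acadm* (0.49) and *Acadsb* (-0.33) in control mice and *Acad10* (-0.27) in CL mice.

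Genes that act before and after the acyl-CoA dehydrogenases were followed in the same comparisons. With CL on chow and HFD, 9.16% and 12.7% of all tested genes were higher and 6.13% and 10.8% lower. In C-3BO mice, 15.8% and 19.3% were higher and 15.9% and 15.5% lower. The counts of the lists below were not tested against these shares. Of the 4 genes of fatty acid entry into mitochondria, CL raised 2 and lowered 1 on chow and raised 3 on HFD, and C-3BO mice had 3 higher on chow and 2 on HFD. *Cpt2*, which remakes acyl-CoA inside the mitochondrion, rose by a log2 fold change of 0.79 and 1.30 with CL on chow and HFD and by 1.00 and 1.32 with the transgene. *Slc25a20*, the carnitine-acylcarnitine carrier, rose by 1.07 and 1.18 with CL and by 0.91 and 0.92 with the transgene. *Cpt1a* was lower with CL on chow, at -0.50 (SE 0.14, edgeR adjusted p = 0.0121). *Cpt1b*, the isoform typical of muscle and brown fat, rose by 0.32 with CL on HFD and by 0.29 with the transgene on chow.

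Of the 11 genes of the later steps of beta-oxidation and of electron transfer, 8 and 9 were higher with CL on chow and HFD and 6 and 7 in C-3BO mice, with none lower. Their median log2 fold change was 0.41 and 0.47 for CL and 0.32 and 0.37 for C-3BO. *Etfdh* encodes the oxidoreductase that takes electrons of mitochondrial acyl-CoA dehydrogenases to ubiquinone. It rose by 0.95 and 0.89 with CL on chow and HFD and by 1.07 and 0.84 with the transgene. *Decr1*, which prepares polyunsaturated chains, rose by 0.87 and 1.22 with CL and by 0.78 and 1.11 with the transgene. In contrast *Etfb* and *Acaa2* passed in none of the 4 comparisons. *Etfb* encodes a subunit of the flavoprotein that receives the electrons, and its log2 fold change lay between -0.23 and 0.25.

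Of the 18 genes of amino acid breakdown, 13 and 12 were higher with CL on chow and HFD and 11 and 13 in C-3BO mice. The lower ones were *Auh* and *Hsd17b10* with CL on HFD and *Auh*, *Hsd17b10* and *Mcee* in C-3BO mice on chow, and none in the 2 other comparisons. *Mccc1*, which acts in the leucine route, rose by a log2 fold change of 0.87 and 0.95 with CL and by 0.78 and 0.90 with the transgene. *Pcca*, of propionyl-CoA carboxylase, rose by 0.97 and 0.87 with CL and by 0.52 and 0.80 with the transgene. Of the 5 complex I assembly partners of *Acad9*, 4 and 4 were higher with CL and 1 and 4 in C-3BO mice, with none lower. In C-3BO mice on chow this 1 of 5 was near the 15.8% of all tested genes higher. The 3 of 18 amino acid genes lower there were near the 15.9% lower. Among the partners *Tmem186* was higher in all 4 comparisons, by 0.50 and 0.91 with CL and 0.60 and 0.77 in C-3BO mice. Of 3 further family genes, *Ivd* (isovaleryl-CoA dehydrogenase) rose with CL by 0.51 on chow and 0.43 on HFD, and *Gcdh* (glutaryl-CoA dehydrogenase) rose by 0.37 in HFD C-3BO mice. *Acad12* fell by 0.36 in HFD C-3BO mice.

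**Figure D5:**
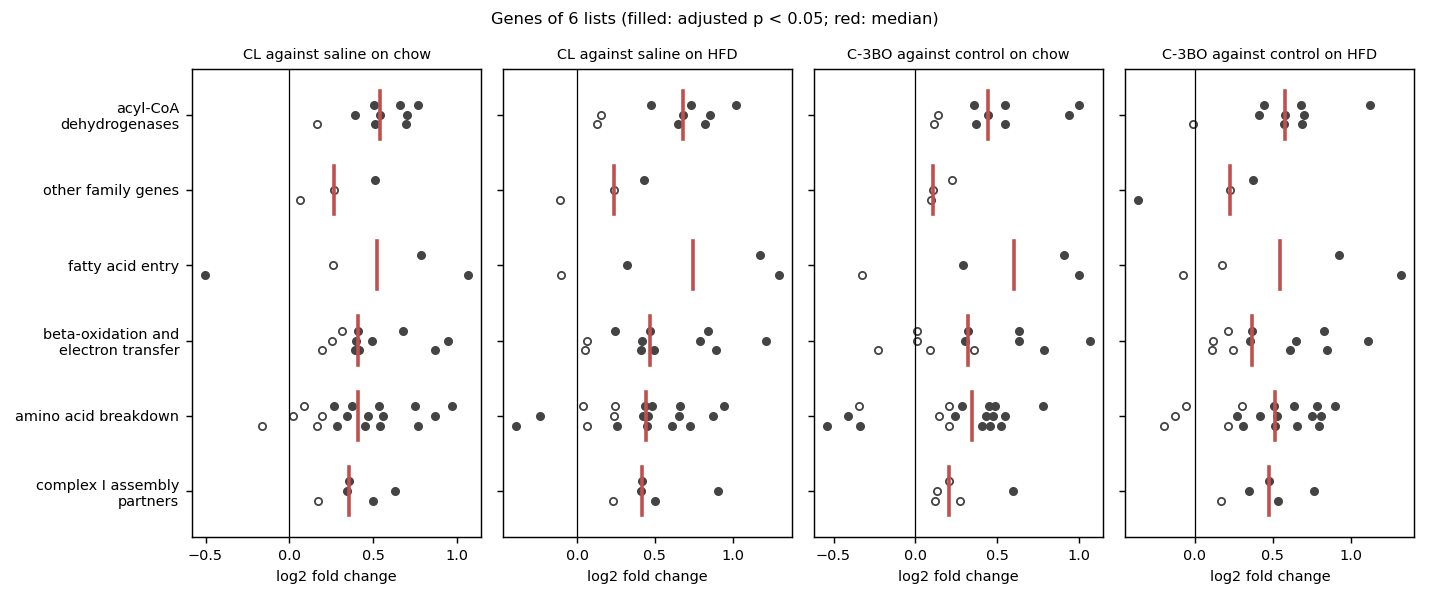
Log2 fold changes (edgeR) of the 9 acyl-CoA dehydrogenases and of 5 other gene lists in the 4 treatment comparisons; each point is a gene, filled where the adjusted p was under 0.05, and the red line is the median of the list. The medians of the 9 genes are 0.54, 0.68, 0.44 and 0.58 from left to right, and the medians of the other lists are also above 0.

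Patterns over the 40 libraries were compared by the root mean square difference of centred log2 CPM, a description in which all genes share library, depth and group. *Acadl* and *Acadvl* were each other's nearest gene of all 13277 tested, at 0.11 on the log2 scale, where their own SD over the libraries was 0.37 and 0.38. After each other, *Acadl* was nearest to *Lyrm5* and *Dlst*, and *Acadvl* to *Acads* and *Pcca*. *Acads* was nearest to *Idh3b* and *Idh3g*, subunits of isocitrate dehydrogenase, with *Acadvl* between them. *Acadm* was nearest to *Sucla2* (0.13), a subunit of succinyl-CoA synthetase, then to *Etfdh* (0.16) and *Eci2* (0.18), and 14 genes lay nearer to it than its nearest family member, *Acadl*. For *Acad10*, 1982 genes lay nearer than its nearest family member, *Acadsb*, and its largest distance in the family, 0.56, was to *Acad11*.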

How the data were processed

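BAT RNA from 40 mice was sequenced as poly(A) libraries on an Illumina HiSeq. The authors aligned reads to mm9 with STAR, processed them with HOMER and counted exon reads of RefSeq genes with iRNA-seq, and the deposited values are raw counts per gene, with tool versions and strand setting not given in the sources used here. Deposited exon lengths were used for levels per kb. The 9 genes, the gene lists and the tests were chosen with earlier results of these data known.

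Genes were kept by filterByExpr (minimum count 10), library sizes were scaled by TMM, and 8 group means were fitted to all 40 libraries with the quasi-likelihood test of edgeR 4.0.16 in R 4.3.3. SE is the absolute log2 fold change divided by the square root of the F statistic. P-values were adjusted over 13277 genes by the Benjamini-Hochberg method and treat mice as replicates. The tests were checked on simulated counts. For patterns, log2 CPM with a prior count of 2 was centred on each gene's mean over the 40 libraries. All 9 members are named, and at most 4 genes are named per other list and comparison. Single values were compared with exact permutation tests over 252 regroupings.

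Alternatives were library totals alone, RLE factors, DESeq2 1.42.0, no filter, at least 10 counts in every library, the libraries of a comparison alone, a replicate block, HFD C-3BO without replicates 4 and 5, and leaving out each mouse. A muscle covariate and leaving out libraries of 1000 CPM or more of muscle transcripts were added after the data were seen. Figures were drawn with matplotlib 3.10.9 in Python 3.11.15.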

Additional observations from a re-analysis of the deposited data

Results flagged for a closer look

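In 5 of the 72 sets of 5 mice formed by a member and a group, 1 mouse stood apart by Dixon's ratio at the 95% level (a gap over the whole range above 0.71), where chance alone marks about 1 in 20. In HFD saline mice, replicate 5 had the highest *Acadm* level, 2459 CPM, against 1851 CPM in the nearest mouse and 1701 CPM in the lowest. The same mouse was highest for *Acadl*, at 3027 CPM against 2549 CPM in the nearest. It remained below every HFD CL mouse for both genes. In HFD C-3BO mice, replicate 2 had 4883 CPM of *Acadl* against 4422 CPM in the nearest. In HFD CL mice, replicate 4 was the lowest for *Acad8*, at 136 CPM against 149 CPM in the nearest, and for *Acad10*, at 64.7 CPM against 71.4 CPM. This is 1 of the mice without which *Acad10* no longer passed between the diets in CL mice.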

How the results depend on the processing

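Over the alternatives, 568 of 571 called values of the 4 treatment comparisons remained called in the same direction and none reversed, the 3 losses being those with library totals alone given above. Values of these comparisons that changed sign were not called in any fit. With library totals alone these were *Acad10* for CL on HFD (-0.02 on the log2 scale) and, for C-3BO on chow, *Acad8* (-0.061) and *Acad10* (-0.078). *Acad10* for C-3BO on HFD went from -0.01 to 0.058 when replicates 4 and 5 of the HFD C-3BO mice were left out, and lay between -0.094 and 0.031 without 1 mouse. The counts of members changed by diet depended on the fit, and the cause was not tested. In control mice the count went from 2 to 1 with the muscle covariate, which lost *Acadsb*, and lay between 2 and 3 without 1 mouse (*Acad8*, lower, was gained without replicate 4 of HFD control). With library totals alone it was again 2, but *Acadsb* was lost and *Acad11*, higher, was gained. With that scale the median of all genes moved to between 0.15 and 0.21 in the 4 diet comparisons, and all members called were higher on HFD. In C-3BO mice the count went from 0 to 6 with library totals alone, where 4720 of 13277 genes were called against 3408 with TMM, 2 with the libraries of the comparison alone, and 1 with DESeq2 or at least 10 counts in every library, and lay between 0 and 1 without 1 mouse (1 without replicate 2 of chow C-3BO or replicate 2 or 4 of HFD C-3BO). In saline mice it went from 0 to 3 with library totals alone (2858 genes against 2057). In CL mice it went from 1 to 5 with library totals alone (3602 genes against 3138), of which none was *Acad10*, and DESeq2 called *Acadm* in place of *Acad10*. It went to 3 with the libraries of the comparison alone and 2 with at least 10 counts in every library, and lay between 0 and 1 without 1 mouse. The C-3BO minus CL difference on chow gained 1 member, *Acad8*, with library totals alone, and 0 to 1 without 1 mouse. Leaving out libraries with muscle transcripts was not run for C-3BO on chow, where 1 mouse per group would remain. For the same reason it was not run for any other comparison with chow control or chow C-3BO mice. These include the diet comparisons in control and in C-3BO mice, the interaction of diet with C-3BO and C-3BO minus CL on chow.

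Mice of different groups share replicate numbers, and the labels do not say what a number marks. Deviations of same-numbered mice correlated between -0.38 and 0.44, with no comparison in which all 5 pairs exceeded 0.1, so that the numbers were not taken to pair mice. With a replicate block, 8, 7, 7 and 8 members were called in the treatment comparisons, 1 member between the diets in C-3BO mice (*Acad11*) and 2 in CL mice (*Acadm* and *Acad11*, with *Acad10* lost at an edgeR adjusted p of 0.0799), and 1, *Acad8*, for C-3BO minus CL on chow (-0.38, edgeR adjusted p = 0.0273).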
